A study of Sus scrofa with 2 samples.

Results

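The genes described here are parvalbumin (PVALB) and 5 genes of the contractile apparatus of fast muscle fibres: TNNC2, MYL1, MYL11 (older name MYLPF), TPM1 and ACTA1. They were found by symbol among the Ensembl pig gene identifiers of the deposited table, each on a single entry, and are 6 of its 27987 entries. All 6 passed the filter of a mean of at least 1 RPKM (reads scaled by the length of the gene and the depth of the library), as did 13191 entries in all. They were chosen by values measured in these same libraries, where PVALB stood out by its ratio between the arms and the others by their levels, so the levels and ratios below are a description and carry no test.

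The tissue was longissimus dorsi, a long back muscle, from crossbred barrows (castrated male pigs, labelled DLY) of Duroc boars and Yorkshire-Landrace sows. In the labels, 16 pigs of 79.0 ± 1.5 kg were divided into a control arm (CON) held at a constant 22 °C and a heat arm (H30) held at a constant 30 °C, 8 pigs each, for 21 days. Both arms shared breed, sex and muscle, and no age of the pigs is stated in the labels. Each arm has 1 messenger RNA library, and the labels do not state whether it pools the RNA of several pigs. No comparison below has a replicate check, and temperature, pig, handling and library cannot be told apart.

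Fast fibres contract and relax quickly. A nerve impulse releases calcium from the sarcoplasmic reticulum, calcium binds troponin C on the thin filament, tropomyosin moves aside and myosin heads pull on actin. The pump of the reticulum then takes the calcium back, and parvalbumin, a small soluble protein with EF hands (the helix-loop-helix fold that holds a calcium ion), binds free calcium in the meantime and so speeds relaxation. TNNC2 is the troponin C of fast fibres, ACTA1 the actin of adult skeletal muscle, and TPM1 the alpha tropomyosin. MYL1 and MYL11 are the essential and the regulatory light chain of fast myosin. Slow fibres use TNNC1 and MYL3 in place of TNNC2 and MYL1.

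The library totals inferred from the deposited values were 23608242 reads for the library from 22 °C (control) and 22863584 for that from 30 °C (heat), and the whole reads recovered over entries came to 90.4% and 90.46% of them. Markers of muscle fibres were abundant, and 7 of 10 listed were matched to an entry and summed to 11207 RPKM in control and 11811 RPKM in heat. In bulk muscle, fewer fibres of a type and less RNA per fibre cannot be told apart.

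PVALB (ENSSSCG00000000138) stood at 226 RPKM at 22 °C and 93.7 RPKM at 30 °C. These levels rest on 3098 and 1245 reads. The RPKM ratio, heat over control, was 0.415 with a 95% counting interval of 0.388 to 0.443, which means a level 58.5% lower in the heat library. Among all entries ordered by level, PVALB held place 267 at 22 °C and place 573 at 30 °C. It was the only one of the 6 genes at least 2-fold lower, on a scale of log2((heat RPKM + 1)/(control RPKM + 1)), with a log2 ratio of -1.26. Over all 13191 genes compared, 0.584% were at least 2-fold lower and 0.629% at least 2-fold higher, 1.21% in either direction. The value of PVALB is among those that led to its choice, so nothing is read from that share.

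The 5 contractile genes stood far above PVALB, and their levels were nearly alike in both libraries. ACTA1 (ENSSSCG00000010190) had the highest mean level of all entries, at 68749 RPKM at 22 °C and 65219 RPKM at 30 °C. It alone took 2421581 reads in the control library, 10.3% of the total, and 2224772 reads, 9.73%, in the other. MYL11 (ENSSSCG00000007799) stood at 23031 and 21673 RPKM, in control and heat. TNNC2 (ENSSSCG00000007424) came next with 22523 and 21011 RPKM. MYL1 (ENSSSCG00000016157) stood at 17607 and 17873 RPKM, and it was the one gene of the 6 with a higher value in the heat library. TPM1 (ENSSSCG00000004570) stood at 16533 and 16151 RPKM. The order of the 6 levels was the same in both libraries.

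**Figure D1:**
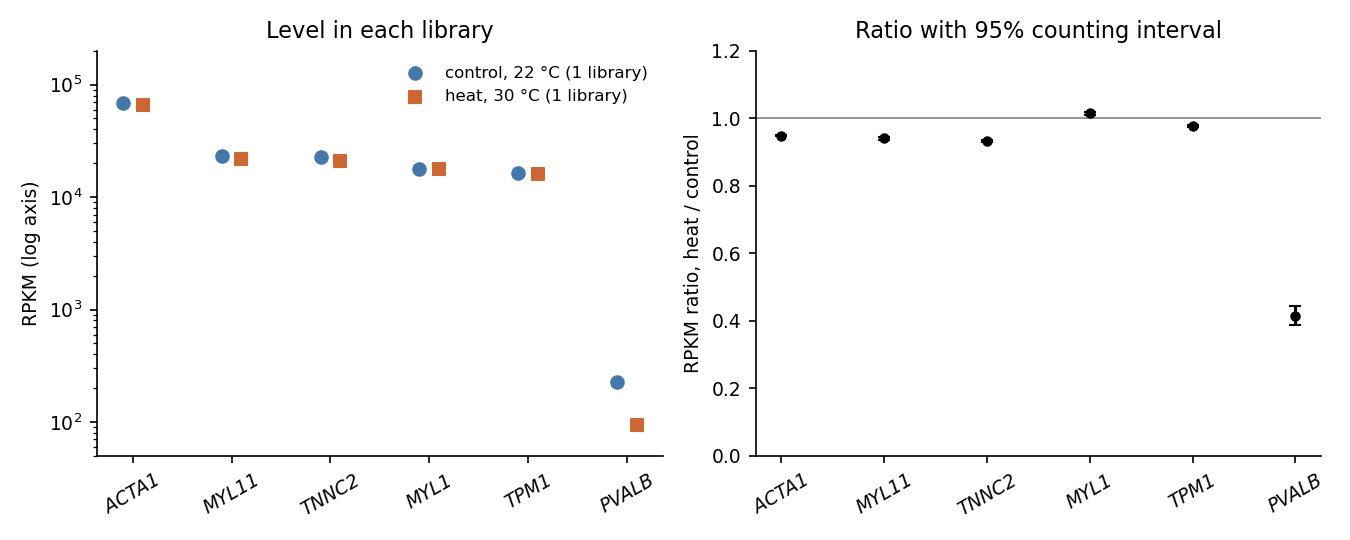
Left, the level of each of the 6 genes in RPKM on a log axis, with 1 point for the control library (22 °C) and 1 for the heat library (30 °C). Right, the RPKM ratio, heat over control, with bars for the 95% counting interval, which covers counting error only. PVALB lies at 0.415 and the other 5 genes between 0.933 and 1.02.

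The ratios of the contractile genes lay close to 1. They were 0.933 for TNNC2 (counting interval 0.929 to 0.937), 0.941 for MYL11 (0.937 to 0.945), 0.949 for ACTA1 (0.947 to 0.950), 0.977 for TPM1 (0.973 to 0.981) and 1.02 for MYL1 (1.01 to 1.02). Counting error was small for these genes, because each rests on at least 342402 reads per library, so the intervals of neighbours in this order overlap only for TNNC2 and MYL11. How far pigs of the same arm differ was not measured. Set against the median log2 ratio of all genes, which was 0.05, all 6 genes lay below it, while 5 of the 6 lay below 0, as did 41.2% of all genes. Most of those genes have far lower levels. Among the 9 entries within a factor of 2 of the mean level of MYL1, 5 had a lower log2 ratio than MYL1 and 3 a higher. The signs of MYL1 and TPM1 turned with the scaling. MYL1 was at 0.02 as deposited and at -0.03 when centred on the median of all genes (below 0 also with a trimmed mean rescaling), and TPM1 was at -0.03 as deposited and at 0.01 when rescaled without the 10 highest genes (above 0 also without the mitochondrial genome).

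Together the 6 genes made up 20.8% of all RPKM at 22 °C and 20.3% at 30 °C. Counted as reads, they took 17.0% and 16.2% of the library totals, and nearly all of this belonged to the 5 contractile genes. PVALB took 0.0131% and 0.00545% of reads, so its lower level hardly touched the sum.

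Genes that stand next to the 6 in the order of mean level give a scale for these values. GAPDH, a glycolytic enzyme directly above MYL11, was at 26043 RPKM in the control and 26426 in the heat library. ATP6, a mitochondrial subunit of ATP synthase directly below TPM1, was at 11613 and 11959 RPKM. UQCRC1, a core subunit of respiratory complex III, stood directly below PVALB at 173 and 146 RPKM, a ratio of 0.848. Of 460 entries with a mean level within a factor of 2 of that of PVALB, 95% had a log2 ratio between -0.42 and 0.39. In this band PVALB was lowest, and 2 entries were at least 2-fold lower. The other was ENSSSCG00000029441, an entry with no symbol, at 255 RPKM in the control and 110 in the heat library (log2 ratio -1.21) on 28976 and 12049 reads. Of the 1012 entries with a mean of at least 50 RPKM, 7 (0.692%) were at least 2-fold lower, and of the 604 among them with a symbol PVALB was the only one (0.166%). PVALB was chosen by this same ratio, so its place in the band and these shares are description only.

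**Figure D2:**
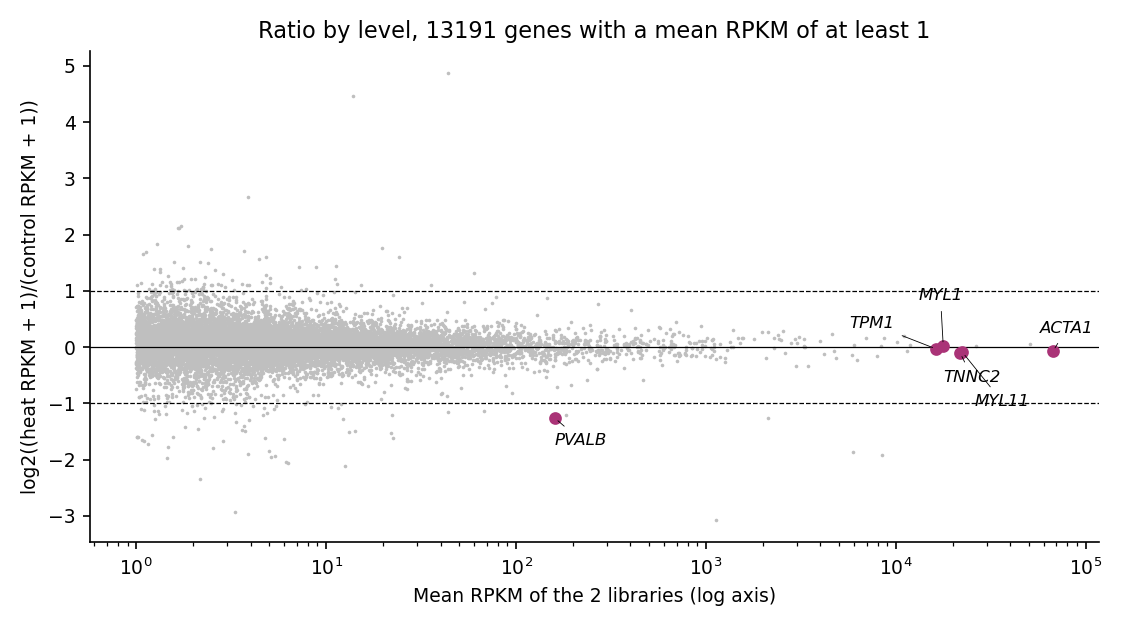
Each grey point is 1 of 13191 genes, by its mean RPKM (log axis) and its log2 ratio, heat over control, with dashed lines at 2-fold in each direction. The 6 genes are in purple: PVALB lies at -1.26, with the entry ENSSSCG00000029441 close to it at -1.21, and the other 5 lie near 0 at the far right.

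Likeness to PVALB is given here only as the distance between log2 ratios over 2 libraries, among entries with a mean level of at least 50 RPKM. The nearest 3 were entries with no symbol, ENSSSCG00000024853 at 2996 and 1246 RPKM (-1.27), ENSSSCG00000029441 (-1.21) and Novel04889 (-1.13), all picked out after their values were seen. Recovered lengths of these 3 were 106, 4812 and 136 bp, in that order, and Novel04889 rests on 300 and 131 reads. Other entries with no symbol lay further below PVALB, at higher levels, and were also picked out after their values were seen. They were ENSSSCG00000020149 at 2019 and 239 RPKM (-3.07), ENSSSCG00000025162 at 13396 and 3547 RPKM (-1.92) and ENSSSCG00000021356 at 9282 and 2552 RPKM (-1.86). Their recovered lengths were 153, 69 and 57 bp. No other gene with a symbol at such a level was as low as PVALB. TNFRSF12A, the receptor of the cytokine TWEAK, was the nearest gene with a symbol, at 122 RPKM in the control and 68.4 in the heat library (log2 ratio -0.82, at a distance of 0.44). CARNS1, which makes the muscle dipeptide carnosine, was at 167 and 124 RPKM (-0.43). LMCD1, a LIM domain protein listed here with slow fibre genes, was at 64.2 and 48.6 RPKM (-0.40). SEMA6C, a semaphorin, was at 81.5 and 62.5 RPKM (-0.38), and DHRS7C, a dehydrogenase of the sarcoplasmic reticulum, at 417 and 322 RPKM (-0.37).

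A ratio of 2 genes within 1 library does not depend on the library total. For every 1000 RPKM of TNNC2 there were 10.03 RPKM of PVALB at 22 °C and 4.46 at 30 °C. Against MYL1 the values were 12.8 and 5.24, against MYL11 9.81 and 4.32, against TPM1 13.7 and 5.80, and against ACTA1 3.29 and 1.44. Relative to the other 5 genes PVALB was thus at 0.409 (MYL1) to 0.445 (TNNC2) of its control value. The contractile genes kept closer proportions among themselves. ACTA1 was at 3.05 times TNNC2 at 22 °C and 3.10 times at 30 °C, at 2.99 and 3.01 times MYL11, at 4.16 and 4.04 times TPM1, and at 3.90 and 3.65 times MYL1. MYL1 stood at 0.764 of MYL11 in the control and 0.825 in the heat library. These proportions compare levels per length of gene.

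The next question was how fast isoforms, and the skeletal actin ACTA1, stood against a partner from slow, cardiac or other fibres in the same library. Of 12 such pairs listed, 4 had both genes matched to an entry. In all 4 the first gene took a smaller multiple of its partner in the heat library. ACTA1 and ACTC1 are not a pair of fast and slow fibres, and ACTA1 is not among the fast fibre genes listed below. The same count was not made over other pairs of genes. TNNC2 was 9.80 times TNNC1 at 22 °C and 7.52 times at 30 °C, a change of the ratio to 0.767 of its control value (counting interval 0.755 to 0.780). The larger part of that change lay in the partner, as the slow troponin C gene TNNC1 stood at 2298 and 2793 RPKM. MYL1 was 29.8 times MYL3 and then 22.3 times, a change to 0.749 (0.728 to 0.770). MYL3, the light chain of slow and ventricular myosin, was at 591 and 802 RPKM.

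ACTA1 was 4081 times ACTC1, the cardiac and fetal actin, at 22 °C and 2570.1 times at 30 °C, a change to 0.630 (0.565 to 0.701). ACTC1 stood at 16.8 and 25.4 RPKM on 558 and 814 reads. The actin genes are near-identical in their coding parts, and the treatment of reads with several matches is not stated in the labels, so a small share of ACTA1 reads placed elsewhere could weigh on ACTC1. MYBPC2, the fast myosin binding protein C, was 5.53 and 5.33 times its slow counterpart MYBPC1, a change to 0.963. Unlike the other partners, MYBPC1 was lower in the heat library, at 489 RPKM in the control and 474 in heat. TPM1 had no matched slow partner. Against TPM2, the beta tropomyosin at 8288 and 8359 RPKM, it stood at 1.99 times in the control and 1.93 times in the heat library, a comparison chosen after the values were seen. TPM1 gives rise to muscle and non-muscle isoforms and MYL1 to a long and a short light chain, and a single value per gene does not separate them.

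**Figure D3:**
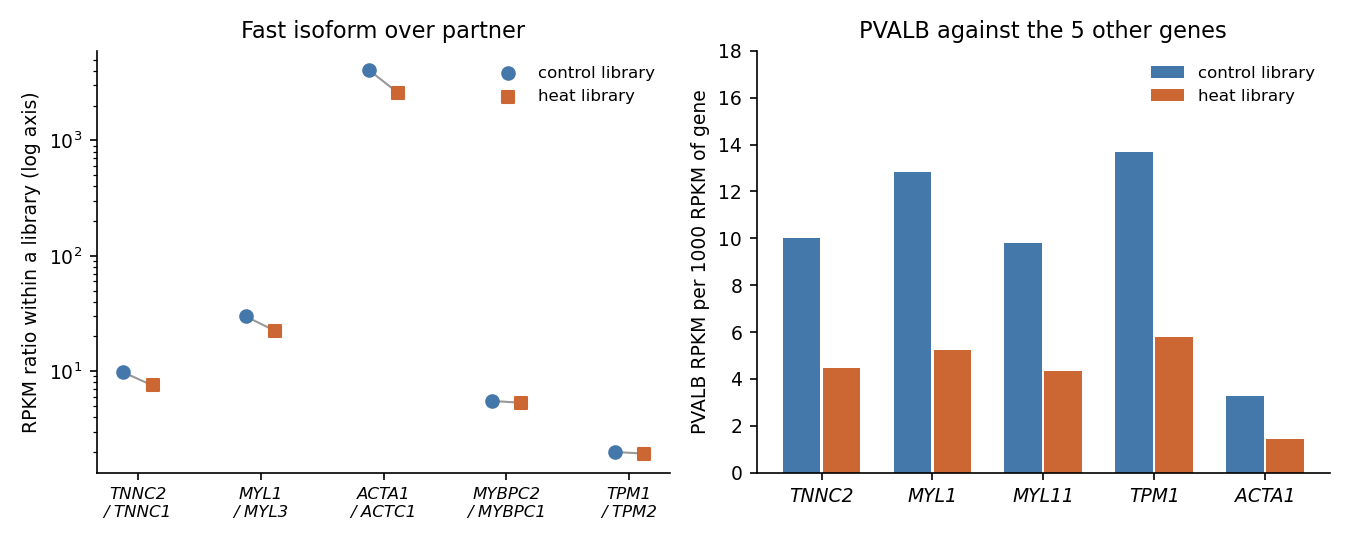
Left, the RPKM of a fast isoform or of ACTA1 over that of its partner within each library (log axis), with lines that join the control and the heat library. Right, PVALB in RPKM per 1000 RPKM of each of the other 5 genes, where the heat bars stand at 0.409 to 0.445 of the control bars.

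No other matched gene of fast fibres was as far apart between the libraries as PVALB. Of 17 listed fast fibre genes 11 were matched, and the myosin heavy chains MYH1, MYH2 and MYH4 are not analysed here. The median log2 ratio was -0.03 (0.01 when rescaled without the 10 highest genes), with 5 above 0 and 6 below, against 58.8% above 0 over all genes. Only PVALB was at least 1.5-fold apart, where 2.37% of all genes were at least 1.5-fold lower and 3.44% higher. The 6 fast genes beyond those of this account had a median of 0.04. ATP2A1, the calcium pump of fast fibres, was at 4367 and 3991 RPKM (log2 ratio -0.13). MYOZ1, a Z disc protein that binds calcineurin, was at 2773 and 3080.2 RPKM (0.15), and MYLK2, the kinase of the regulatory light chain, at 397 and 429 RPKM (0.11). CASQ1, the calcium store protein of fast fibres, was at 2934 and 3080.1 RPKM (0.07). Summed RPKM of the fast list was 94203 in the control and 91014 in the heat library.

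Slow fibre genes had a median of 0.14 over 9 matched of 16 listed, with 5 above 0 and 4 below, against 58.8% above 0 over all genes. That median moved with the scaling, from 0.05 with a trimmed mean rescaling to 0.19 when rescaled without the mitochondrial genome. Beside TNNC1 and MYL3, the slow troponins TNNT1 (1482 and 1655 RPKM) and TNNI1 (1033 and 1136 RPKM) had higher values in the heat library. CSRP3, a muscle LIM protein, had the highest ratio, 1.84, from 102 to 188 RPKM, and was the only member at least 1.5-fold apart. LMCD1 was lowest, and MYH7B, a slow myosin heavy chain gene, next, at 13.6 and 10.6 RPKM (-0.34). The summed level of the slow list was 6120 and 7145 RPKM, so the matched fast genes summed to 15.4 times the matched slow genes in the control and 12.7 times in the heat library. The slow genes MYH7, MYL2, MYL6B, TPM3, ATP2A2, CASQ2 and MYOZ2 are not analysed here, nor are TNNT3, TNNI2 and ACTN3 of the fast list. These multiples depend on which genes were matched and do not measure the balance of fibre types.

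The medians of the next 4 lists lay just above 0 as deposited and below 0 when centred on the median of all genes. In the thin filament, 14 of 20 listed genes were matched, with a median of 0.03. Of these, 9 lay above 0 and 5 below, against 58.8% above 0 over all genes. Against the median of all genes, 6 lay above and 8 below. NEB, the nebulin that spans the filament, was lowest at 758 and 677 RPKM (-0.16), followed by TNNC2. TNNT2, the cardiac and embryonic troponin T, was highest at 6.34 and 12.95 RPKM (0.93), on 133 and 263 reads, followed by ACTC1 (0.56). In the thick filament and M band, 11 of 21 were matched, with a median of 0.02, and MYL1 was the middle gene. MYL3 (0.44) and MYBPH, a myosin binding protein (497 and 639 RPKM, 0.36), were highest. MYOM2, the myomesin of fast fibres, was lowest at 482 and 419 RPKM (-0.20), followed by MYBPC2 (-0.10).

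Genes that release and take up calcium, the ion that PVALB buffers, had a median of 0.02 over 20 matched of 31 listed. Of the 20, 11 lay above 0 and 9 below, against 58.8% above 0 over all genes. None was at least 1.5-fold apart, where 2.37% of all genes were at least 1.5-fold lower and 3.44% higher. At such shares a list of 20 can hold none. MCU, the pore of the mitochondrial calcium uniporter, was highest at 31.6 and 42.5 RPKM (0.42), and SLC8A3, a sodium-calcium exchanger, next at 3.92 and 4.87 RPKM (0.26). SYPL2, a protein of the triad junction, was lowest at 221 and 190.4 RPKM (-0.21), and CACNB1, a subunit of the voltage sensor, next at 111 and 96.6 RPKM (-0.19). SLN, the pump inhibitor sarcolipin, was at 6590.2 and 7356 RPKM (0.16), named after its values were seen.

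Among EF hand proteins, 21 of 26 were matched and 19 passed the filter, with a median of 0.04. PVALB was lowest and the only one at least 1.5-fold apart, where 2.37% of all genes were at least 1.5-fold lower and 3.44% higher. The ratio of PVALB led to its choice, so nothing is read from its place in this list. SRI, sorcin, came next at 7.61 and 5.58 RPKM (-0.39), with a counting interval of the ratio that holds 1 (0.498 to 1.07). EFHD1 (2.33 and 3.07 RPKM, 0.29) and TNNC1 (0.28) were highest.

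**Figure D4:**
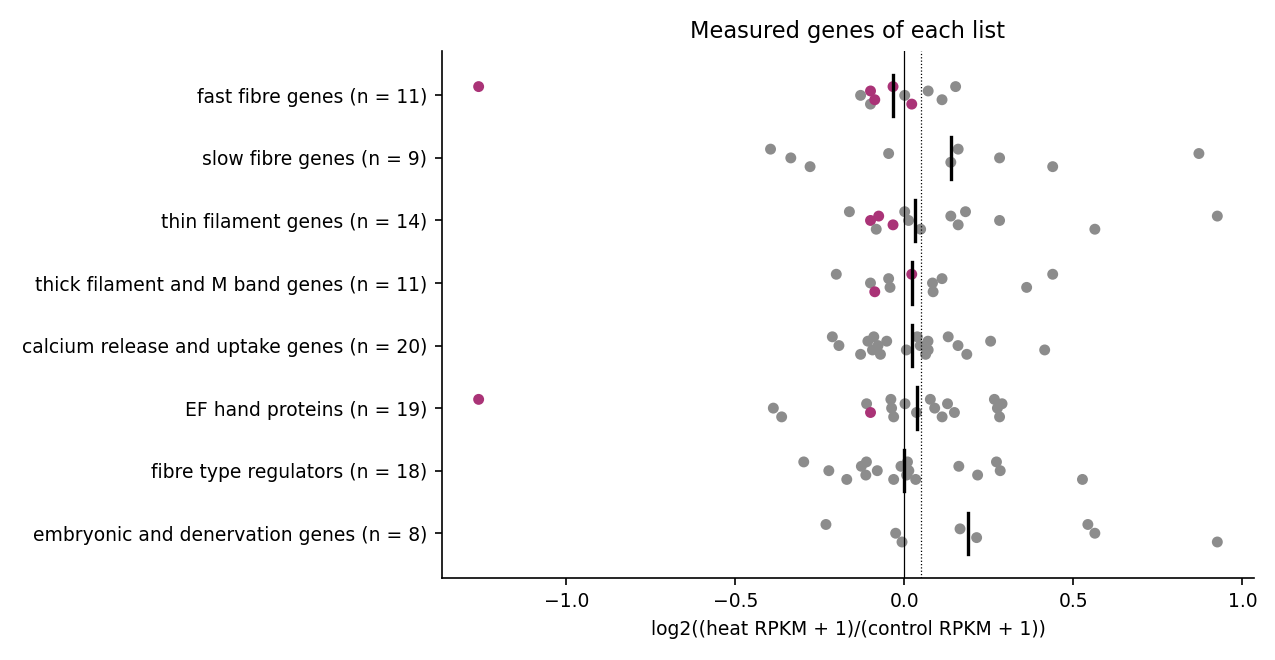
Each point is the log2 ratio, heat over control, of 1 measured gene of a list, with the 6 genes in purple, a black bar at the list's median and a dotted line at the median of all genes, 0.05. PVALB at -1.26 is the lowest point of both lists that hold it, and no other point lies below -0.40. Some genes stand in several lists.

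Regulators of fibre type had a median of 0.00 (22 of 33 matched, 18 past the filter). Of these 18, 9 lay above 0 and 9 below, against 58.8% above 0 over all genes. Set against the median of all genes, 5 lay above it and 13 below. NFATC3, a calcineurin target, was highest at 15.7 and 23.03 RPKM (0.53), and MYF6, a myogenic factor of mature fibres, next at 97.9 and 119 RPKM (0.28). MYOD1, a myogenic factor found more in fast muscle, was lowest at 12.9 and 10.3 RPKM (-0.30), and HDAC5, a repressor of MEF2 factors, next at 20.1 and 17.1 RPKM (-0.22). The calcineurin subunits PPP3CA (36.7 and 36.4 RPKM) and PPP3CB (101 and 103 RPKM) lay within counting error of no difference. Both were named after their values were seen.

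Embryonic and denervation genes had a median of 0.19 over 8 genes past the filter, with 5 above 0, against 58.8% over all genes. TNNT2 and ACTC1 were highest and MYH8 lowest. MYH8, by its symbol a perinatal myosin heavy chain, was at 6739 and 5737 RPKM (-0.23). Its level in grown pigs is that of a main myosin, and reads of near-identical heavy chains could share this entry, so its identity is uncertain. MYH3, the embryonic heavy chain, was at 37.2 and 36.5 RPKM (-0.03).

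Markers of other cells in the muscle were low beside the contractile genes, in sums over those with a mean of at least 1 RPKM, and no matched marker was at 0 in both libraries. Counts below 0 stand beside 41.2% below 0 over all genes, and the lists are too short to read a shift of a cell type from them. Fibroblast markers summed to 981 RPKM in the control and 887 in the heat library (6 of 9 below 0), adipocyte markers to 52.3 and 50.8 (2 of 4), and endothelial markers to 142 and 160.1 (2 of 6). Smooth muscle and pericyte markers summed to 120.5 and 129 RPKM (4 of 6 below 0), macrophage markers to 30.03 and 32.1 (4 of 6), and the haemoglobin chain HBB stood at 89.04 and 112. Lymphocyte markers summed to 5.39 and 5.12 (2 of 3 below 0), Schwann cell and nerve markers to 21.2 and 17.3 (2 of 2), and satellite cell markers to 25.9 and 31.7 (0 of 2). The part of these cells in the values of the 6 genes was not tested.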

How the data were processed

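Messenger RNA of longissimus dorsi was measured in 2 libraries, 1 per arm. The deposited table gives RPKM as the authors computed it, with 1 value per gene and library. Per the submitters' processing notes, the tools were TopHat 1.4.0, Cufflinks 1.3.0 and Bowtie, whose roles and order they do not give, and the genome build was Sscrofa10.2. The counter, the source of gene lengths and the treatment of reads with several matches are not given in the sources used here. The labels' kit is not described as marking strand, so antisense reads cannot be told apart.

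Of 27987 entries, 11374 were given a symbol by a table of pig gene names. No coordinates or sequences are printed, since no genome of that build was used here.

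Whole reads were recovered from the RPKM values. The ratio of the library totals came from low genes, and the totals from the requirement that gene lengths be whole. They lay within 1.0e-05 (control) and 4.9e-05 (heat) reads of whole numbers. The smallest whole length between 50 and 30000 bp that gave whole reads in both libraries, within the rounding of 10 significant digits, was found for all 19550 entries above 0 in both. True reads can be a multiple of these. On a gene of 1 kb, 1 read is worth 0.0424 RPKM in the control library. On simulated reads with 19586 such entries both totals came back exactly, and reads exactly for 83.6% of entries and up to a common factor for 99.94%.

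Counting intervals (Clopper-Pearson, 95%) of an RPKM ratio came from these reads. Those of a change between ratios used the normal approximation on log reads. Reads from PCR that carry no molecular identifier do not each stand for a molecule, so intervals cover counting error only. With 1 library per group no test was made and genes were counted by size, past 2-fold or 1.5-fold on the scale log2((heat RPKM + 1)/(control RPKM + 1)), among the genes whose mean RPKM was 1 or more. Of 234 listed symbols 152 were matched, exactly or by a listed older symbol, and the other 82 are not analysed here. The genes and lists were chosen with earlier results of these data known. Genes named are the 6, both genes of each fast and partner pair, the 2 highest and 2 lowest of each list, the 5 nearest to PVALB in ratio and neighbours in level. Genes outside this rule are marked in the text as picked after their values were seen. For the lists of other cells sums and counts are given, and HBB is named as the only red blood cell marker past the filter. Alternatives were other pseudocounts, filters and scalings. Python 3.11.15, numpy 2.4.6, pandas 2.3.3, scipy 1.17.1 and matplotlib 3.10.9 were used.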

Additional observations from a re-analysis of the deposited data

How the results depend on the processing

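No paired analysis was possible because there is 1 library in each arm. The log2 ratio of PVALB ran from -1.34 with a trimmed mean rescaling to -1.21 when rescaled without the 13 genes of the mitochondrial genome, over 9 alternatives. These could hardly move it. Each scaling shifts all genes nearly alike, at most by the -0.0828 of the trimmed mean. The sum over entries cannot differ, as PVALB has a single entry. The alternatives therefore lend no weight to a ratio that led to the choice of PVALB. Pseudocounts moved the other 5 genes by less than their counting error, but scaling moved them, by construction all nearly alike. Centred on the median, TNNC2 was at -0.150, MYL1 -0.0280, MYL11 -0.137, TPM1 -0.0834 and ACTA1 -0.126. With a trimmed mean they were at -0.183, -0.0611, -0.171, -0.117 and -0.159, rescaled without the 10 highest genes at -0.0566, 0.0653, -0.0441, 0.0099 and -0.0324, and without the mitochondrial genome at -0.0513, 0.0706, -0.0388, 0.0152 and -0.0271. Of the 8 list medians, 51 of 64 alternative values kept their sign. The 83 higher and 77 lower genes past 2-fold numbered 290 and 193 at pseudocount 0.1, 7 and 20 at pseudocount 5, 17 and 26 where the mean RPKM had to reach 5, and 10 and 10 among entries with a symbol. Chosen after seeing the data, a recovered length of at least 300 bp gave 38 and 21, and a mean RPKM of 50 or more gave 1 and 7. Fewer genes enter under the last 4, and the cause of the pseudocount's effect is that it shrinks low genes. The split was 68 and 86 when centred, 65 and 85 with a trimmed mean, 97 and 72 without the 10 highest genes, 99 and 72 without the mitochondrial genome and 121 and 104 with no filter. Changes of the ratio to a partner were the same from reads by construction, since the reads were recovered from the RPKM values, so this is no check. Summing partners of the same role was not run, since 1 partner of each role was matched. Depth limits PVALB more than the contractile genes, and low genes most.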
